A study of Mus musculus with 6 samples.

Results

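Heat shock proteins and chaperones were measured in the ventral midbrain of mice labelled as knockout or wild type for Bach1, which encodes a transcriptional repressor. The group held every gene with a probe set of its own whose symbol begins with Hspa, Hspb, Hspd, Hspe, Hsph, Hsp90, Dnaja, Dnajb, Dnajc, Bag or Cct and a number, together with Tcp1. Hspa5, Hsp90b1, Dnajc6 and Cct8 were left out by that rule. It found 80 genes among 22180 with a probe set of their own, read by 91 probe sets, and for a gene with more than 1 the probe set with the highest mean over the arrays was used. Dnaja1, Dnajb8, Dnajc17, Dnajc19, Hsp90ab1 and Hspb2 were not analysed here. The arrays carried RNA of whole ventral midbrain from male mice 2 months of age, 3 labelled Bach1 KO (a Bach1 knockout) and 3 labelled WT (wild type). No strain, knockout allele or treatment is given for either group in the sources used here, and nothing in the labels says whether replicates came from different animals. The p-values therefore reflect the spread among these samples, which may be technical. In whole tissue, fewer cells of a type and less RNA per cell cannot be told apart.

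Chaperones bind proteins that are not yet folded or have lost their fold. Hsp70 proteins work in cycles of ATP use that DnaJ (Hsp40) partners start and that nucleotide exchange factors, among them BAG proteins and Hsp110, end. Hsp90 matures kinases and steroid receptors, the CCT ring folds actin and tubulin, and small heat shock proteins hold unfolded clients without using ATP. Under heat or oxidative stress, heat shock factor 1 binds heat shock elements in the promoters of a subset, the inducible members, while others such as Hspa8 are made all the time. BACH1 itself represses genes with antioxidant response elements, of which Hmox1 is the best known. Not every member is cytosolic: Hspa9, Hspd1 and Hspe1 act in mitochondria, and Hspa13, Dnajb9 and Dnajb11 in the endoplasmic reticulum.

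The array as a whole gave few calls. Pearson correlations between arrays across probe sets ran from 0.984 to 0.989. The dopamine transporter Slc6a3 read 11.69 to 12.17 and tyrosine hydroxylase, Th, 11.02 to 11.49 on the log2 scale, so markers of the labelled region were present on every array. The Bach1 probe set was not lower on the knockout-labelled arrays (log2 fold change 0.11, 95% confidence interval, CI, -0.085 to 0.31). The knockout allele is not given, so whether this probe set would read lower is not known, and directions are given by label. Hmox1 was at 8.38 ± 0.15 on the knockout-labelled and 6.43 ± 0.098 on the wild-type arrays (SD, n = 3 each; limma, adjusted p = 0.0181). Limma called 3 of 41345 probe sets at an adjusted p under 0.05, which is 0.00726%, and 1 of 22180 genes with 1 probe set each, which is 0.00451%. With any 1 of the 6 arrays left out it called 0 probe sets.

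The promoters of the inducible genes on which the results turn are shown first, because Hspa1a and Hspa1b share nearly the same one. The windows run from 250 bases before to 50 bases after the gene start, as RefSeq gives them on GRCm38.p6, and each is printed 5′ to 3′ on the strand of its gene. Hspa1a lies on the minus strand (window chr17:34972107-34972406), as does Hspa1b (chr17:34959189-34959488), and both encode the stress-inducible Hsp70. Hspb1, the small heat shock protein Hsp25, lies on the plus strand (chr5:135887669-135887968). Hspe1, the mitochondrial co-chaperonin Hsp10, lies on the plus strand (chr1:55087898-55088197), and its window overlaps that of the chaperonin gene Hspd1, on the other strand, by up to 285 bases. Capitals mark the heat shock element core, read as GAANNTTC or TTCNNGAA, where N is any base.
Hspa1a: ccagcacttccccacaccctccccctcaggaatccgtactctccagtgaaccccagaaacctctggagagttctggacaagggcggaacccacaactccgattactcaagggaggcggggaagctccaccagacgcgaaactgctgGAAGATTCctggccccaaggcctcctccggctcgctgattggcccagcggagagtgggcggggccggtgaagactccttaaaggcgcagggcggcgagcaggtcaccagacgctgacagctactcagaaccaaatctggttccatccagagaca
Hspa1b: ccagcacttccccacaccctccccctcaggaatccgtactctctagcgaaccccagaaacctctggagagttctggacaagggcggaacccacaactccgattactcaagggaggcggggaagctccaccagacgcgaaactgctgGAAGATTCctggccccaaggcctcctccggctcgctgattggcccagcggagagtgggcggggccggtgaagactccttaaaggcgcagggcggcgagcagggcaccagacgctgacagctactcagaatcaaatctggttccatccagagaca
Hspb1: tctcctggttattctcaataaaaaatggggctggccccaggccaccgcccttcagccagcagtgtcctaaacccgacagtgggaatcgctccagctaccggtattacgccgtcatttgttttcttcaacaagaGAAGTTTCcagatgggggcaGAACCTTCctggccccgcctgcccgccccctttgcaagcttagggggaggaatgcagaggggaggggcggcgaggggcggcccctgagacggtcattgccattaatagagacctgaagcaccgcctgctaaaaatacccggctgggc
Hspe1: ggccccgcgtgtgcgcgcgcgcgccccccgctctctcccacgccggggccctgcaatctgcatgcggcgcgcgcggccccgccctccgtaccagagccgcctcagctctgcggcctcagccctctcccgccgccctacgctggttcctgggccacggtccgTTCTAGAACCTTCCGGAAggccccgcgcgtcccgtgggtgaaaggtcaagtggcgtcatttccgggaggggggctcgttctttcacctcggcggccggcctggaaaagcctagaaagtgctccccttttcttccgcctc
The Hspa1a and Hspa1b windows had the same base at 296 of 300 positions, each with 1 core, at position -104 from the gene start. Hspb1 had 2 separate cores and Hspe1 a run of 3 overlapping ones. Both forms of the core read the same on the opposite strand, and overlapping matches were counted one by one. The core was present in 15.1% of all promoter windows and in at least 1 window of 17% of all genes. Of the 80 chaperone genes 66 had a window, and 20 of these 66 (30.3%) held the core. Among inducible genes it was in 8 of 10 with a window and among constitutive genes in 3 of 12. The 8 are not separate occurrences, since they include Hspa1a with Hspa1b and the overlapping windows of Hspd1 and Hspe1. In Bag3 and Hspb8 the core lay after the gene start, at positions 43 and 3. Each printed window held the core, whereas that of the inducible gene Dnajb1, which is not printed, did not. The inducible list was drawn up from what is known of this response, so that split is a description. A match is not a binding site, and a missing match says only that these letters are not in this window.

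None of the 80 chaperone genes passed the test between the genotypes. Limma called 0 at an adjusted p under 0.05, and the smallest adjusted p among them was 0.543. At an unadjusted p under 0.05 there were 6 members (7.5%), 2 higher and 4 lower on the knockout-labelled arrays. The background was 8.27% over all probe sets (4.97% higher, 3.3% lower) and 6.51% over genes with 1 probe set each (3.8% higher, 2.71% lower). Complete separation of the genotypes was seen for 9 members (11.3%), 3 higher and 6 lower. That held for 14.3% of all probe sets (7.4% higher, 6.86% lower) and 14.3% of genes (6.36% higher, 7.94% lower). Both shares lie near the background. With 1 array left out, 1 to 4 members had an unadjusted p under 0.05, the fewest without knockout-labelled replicate 3. Over all 41345 probe sets that count ran from 2469 to 4007, and it was highest without knockout-labelled replicate 3. The median log2 fold change was -0.017 over the members and 0.00050 over all probe sets, and 60 members had an absolute log2 fold change under 0.1. Means were higher on the knockout-labelled arrays for 34 members and lower for 46. That split depended on scaling and was 43 to 37 after renewed quantile normalization and 18 to 62 with each array centred on its median. The 95% CIs of 71 members lay within 0.5 log2 units on either side of 0, which bounds how large a difference these arrays leave room for. The plot of fold changes by family shows this, with widest intervals for Hspa1a and Hspa1b.

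**Figure D1:**
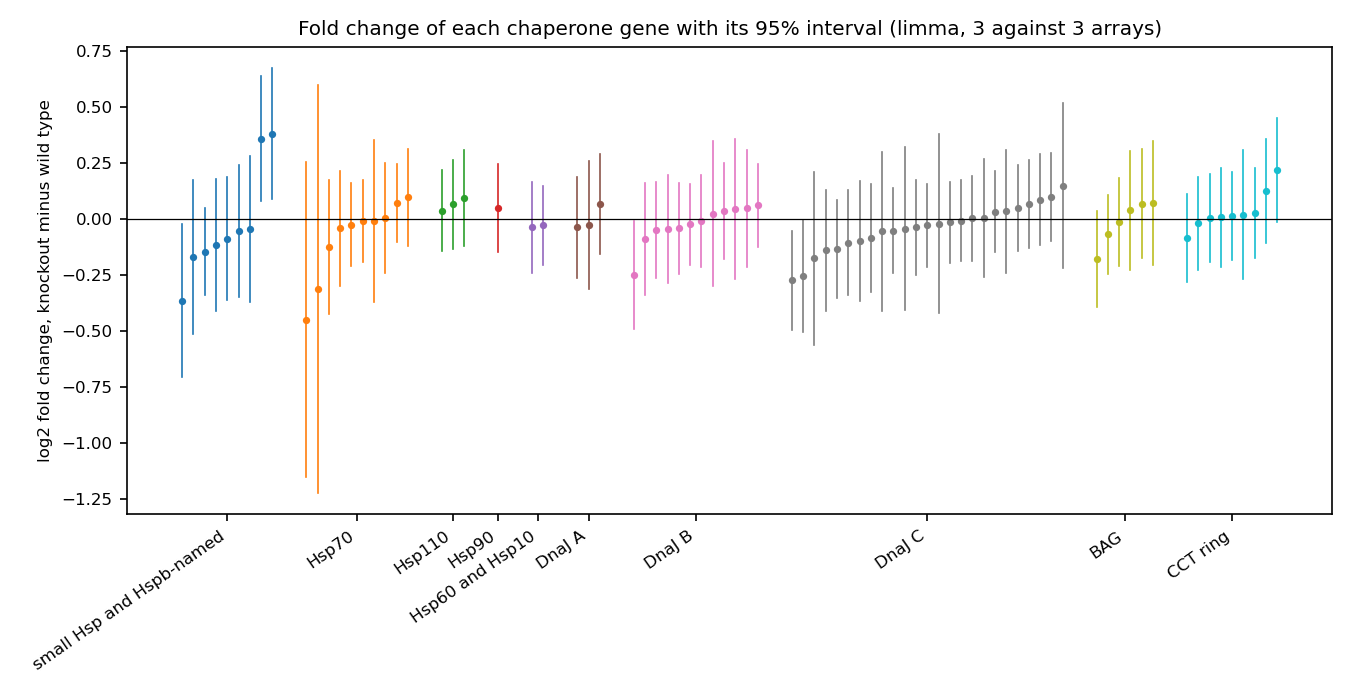
The y axis gives the log2 fold change, knockout minus wild type, for each of 80 chaperone genes, and each point is a gene with its 95% CI from limma (3 against 3 arrays). Genes are grouped by family along the x axis and ordered by value within it; most points lie within 0.1 of the zero line, and Hspa1a and Hspa1b have the longest intervals.

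The inducible Hsp70 genes Hspa1a and Hspa1b each spanned a wider range within either genotype than the difference between the genotype means. Hspa1a read 6.95, 7.92 and 7.24 on wild-type replicates 1 to 3 and 6.66, 7.31 and 6.79 on knockout-labelled replicates 1 to 3. The groups overlapped: replicate 2 was the highest array of each genotype, and knockout-labelled replicate 2 lay above wild-type replicates 1 and 3. The log2 fold change of Hspa1a was -0.45 (SE 0.29, 95% CI -1.16 to 0.25; limma, adjusted p = 0.711). Hspa1b read 6.71, 7.46 and 6.39 on the wild-type and 6.14, 7.20 and 6.27 on the knockout-labelled arrays. Replicate 2 was again highest in each genotype, but wild-type replicates 1 and 3 were in the opposite order to Hspa1a. Its log2 fold change was -0.31 (SE 0.37, 95% CI -1.22 to 0.60; limma, adjusted p = 0.850). Without wild-type replicate 2 these values were -0.17 for Hspa1a and -0.011 for Hspa1b, and without knockout-labelled replicate 2 they were -0.65 and -0.64. Without knockout-labelled replicate 1 the value of Hspa1b was -0.12, and without knockout-labelled replicate 3 it was -0.18. Since the copies are nearly identical, how far the probe sets tell them apart is uncertain, and they are not separate observations.

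The spread of the pair stood out from that of the other members. Within genotypes the SD was 0.43 for Hspa1a and 0.56 for Hspa1b, and the next member, Dnajc5g, had 0.23. Among probe sets whose mean level lay within 0.5 log2 units, 97.6% had a lower SD than Hspa1a and 98.6% a lower one than Hspa1b. The highest and lowest arrays differed by 1.26 and 1.31 log2 units in these genes. By contrast 43 of the 80 members had an SD under 0.1, and the median over members was 0.091. That of all probe sets was 0.165 and that of 1 probe set per gene 0.131, and 28 of 80 members lay above the median SD of probe sets of like level. The mitochondrial Hspe1 had an SD of 0.028 and Hspa9 one of 0.020, with 0.962% and 1.64% of probe sets of like level lower. In the plot of spread against level, the pair lies at the upper edge of the cloud and Hspe1 near its lower edge. The remaining inducible members lie within the cloud.

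**Figure D2:**
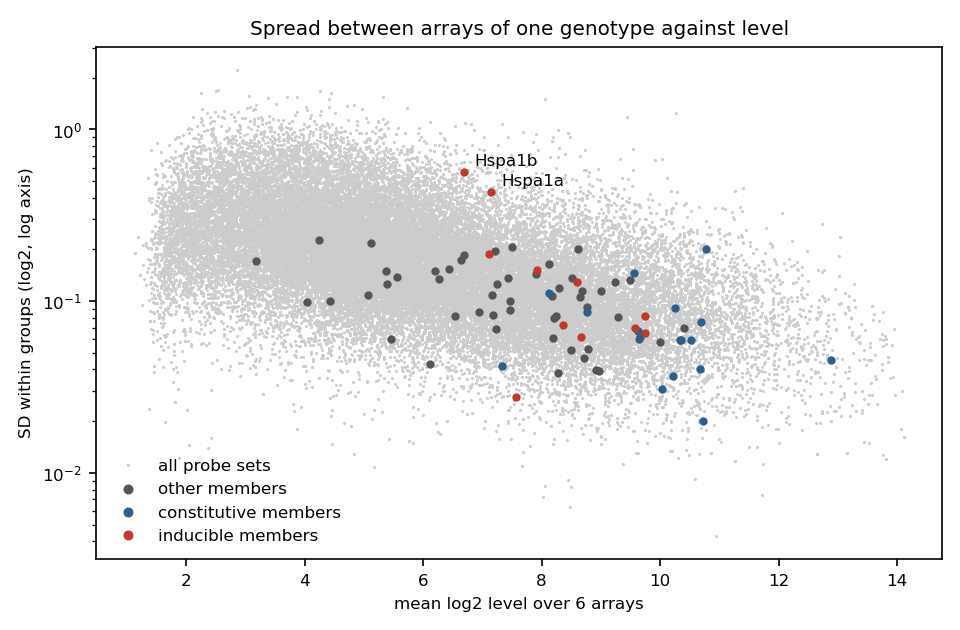
Each point is a probe set, with its mean log2 level over 6 arrays on the x axis and its SD within genotypes on a logarithmic y axis; grey points are all probe sets and coloured points the chaperone genes by class. Hspa1a (0.43) and Hspa1b (0.56) have the highest SD of the 80 members.

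As a mean, the other inducible members moved far less than the pair. The mean deviation of Hspa1a and Hspa1b from the wild-type mean was -0.28, 0.58 and -0.29 on wild-type replicates 1 to 3 and -0.71, 0.15 and -0.58 on knockout-labelled replicates 1 to 3. For the 9 other measured inducible genes the same quantity stayed between -0.041 and 0.043, with its highest wild-type value also on replicate 2. In a mean over 9 genes opposite movements can cancel. The widest single ranges among them were those of Hspb1, Hspb8 and Bag3, at 0.48, 0.36 and 0.32 log2 units. Of these 9, Dnajb1, Hsph1 and Hspe1 shared the order of the pair in that replicate 2 was the highest array of each genotype, over ranges of 0.20, 0.24 and 0.067 log2 units. Replicate 2 was highest in both genotypes for 8 of the 80 members (10.0%) and for 10.1% of all probe sets. For the 16 measured constitutive genes the mean deviation stayed between -0.025 and 0.019.

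Several marker lists of other cells or regions also differed between arrays. Markers of cortex and hippocampus, 6 of 8 measured, were at -0.12, 0.085 and 0.033 on wild-type replicates 1 to 3 and at -0.17, 0.092 and -0.076 on knockout-labelled replicates 1 to 3. Much of that order came from Neurod6, which read 4.93, 5.67 and 5.33 against 4.96, 6.41 and 5.60. Without it, a choice made after its values were seen, the list was at -0.066, 0.029 and 0.036 against -0.13, -0.11 and -0.15. Summed log2 levels of the 6 ran from 40.4 to 41.6 on the wild-type and from 40.1 to 41.6 on the knockout-labelled arrays. Some read at a low level: Tbr1 (4.58 to 5.08) and Emx1 (5.22 to 5.52) lay below the array medians of 5.58 to 5.69. Neurod6 did so on wild-type replicates 1 and 3 and knockout-labelled replicate 1. The widest differences were those of meningeal fibroblast markers, 8 of 8 measured, at -0.62, 0.34 and 0.28 on the wild-type and -0.072, -0.66 and -0.22 on the knockout-labelled arrays. Endothelial and mural markers, 12 of 12, were lowest on knockout-labelled replicate 2 at -0.28 and highest on wild-type replicate 2 at 0.076. Dopaminergic markers, 10 of 10, were highest on knockout-labelled replicates 1 and 3 at 0.20 and 0.35, with the other arrays between -0.11 and 0.057. Immediate early genes, 10 of 10, were at 0.031, 0.032 and -0.063 on the wild-type and at 0.019, 0.010 and -0.33 on the knockout-labelled arrays. The part of these lists in the Hspa1a and Hspa1b pattern was not tested.

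**Figure D3:**
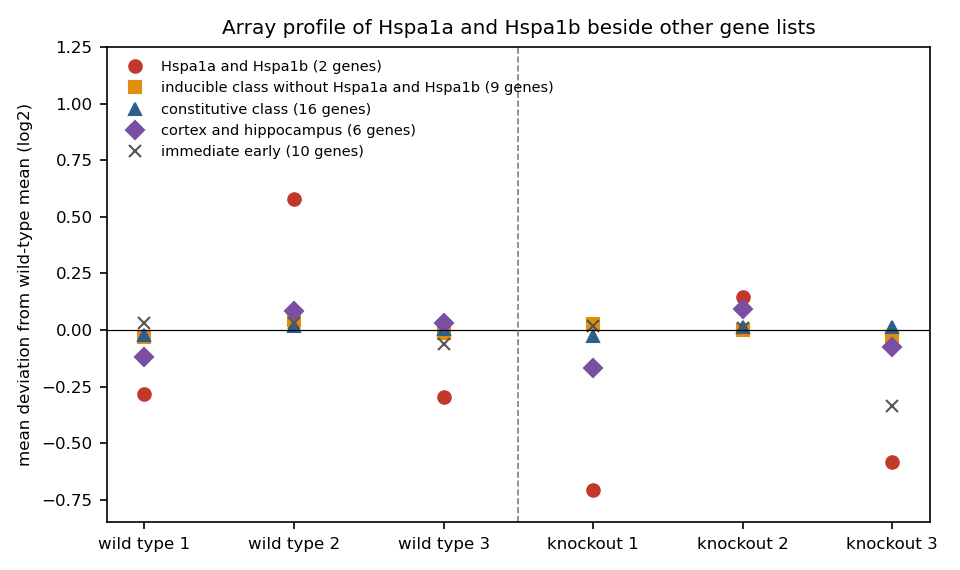
The y axis gives the mean deviation from the wild-type mean in log2 units on each of the 6 arrays for Hspa1a and Hspa1b, the other inducible genes, the constitutive genes and 2 marker lists. The pair spans -0.71 to 0.58 with its highest value in each genotype on replicate 2, while both other chaperone classes stay within 0.05 of zero.

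For none of the other stress-inducible genes did the 95% CI leave out 0, and 8 of the 11 in the class had an absolute log2 fold change under 0.1. Dnajb1, the main Hsp40 partner of Hsp70 in the stress response, read 8.27, 8.47 and 8.36 on the wild-type and 8.33, 8.39 and 8.36 on the knockout-labelled arrays, with full overlap. Its log2 fold change of -0.0083 (95% CI -0.21 to 0.20) changed sign with the normalization. Hsp90aa1, the inducible cytosolic Hsp90, read 8.67, 8.64 and 8.62 against 8.64, 8.79 and 8.64, a log2 fold change of 0.049 (95% CI -0.15 to 0.25). Hsph1, the Hsp110 nucleotide exchange factor, read 9.67, 9.72 and 9.70 against 9.77, 9.91 and 9.69. The groups overlapped, knockout-labelled replicate 2 was the highest array, and the log2 fold change was 0.093 (95% CI -0.12 to 0.31). Bag3, which pairs with Hspb8 to send clients to autophagy, read 8.59, 8.66 and 8.48 against 8.78, 8.46 and 8.60, with a log2 fold change of 0.037 (95% CI -0.23 to 0.30). Its partner Hspb8 was at 7.96 ± 0.19 on the wild-type and 7.90 ± 0.10 on the knockout-labelled arrays (SD, n = 3). Hspd1 and Hspe1, whose promoters share the run of heat shock cores printed with the sequences, had log2 fold changes of -0.038 (95% CI -0.24 to 0.17) and -0.029 (95% CI -0.21 to 0.15). Hspe1 covered only 7.54 to 7.61 over the 6 arrays. Of the 11 measured inducible genes 0 reached an unadjusted p under 0.05 and 0 had groups that did not overlap. The shares over all probe sets were 8.27% and 14.3%, so counts of 0 among 11 genes say little about the class. The median log2 fold change of the class was -0.029.

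**Figure D4:**
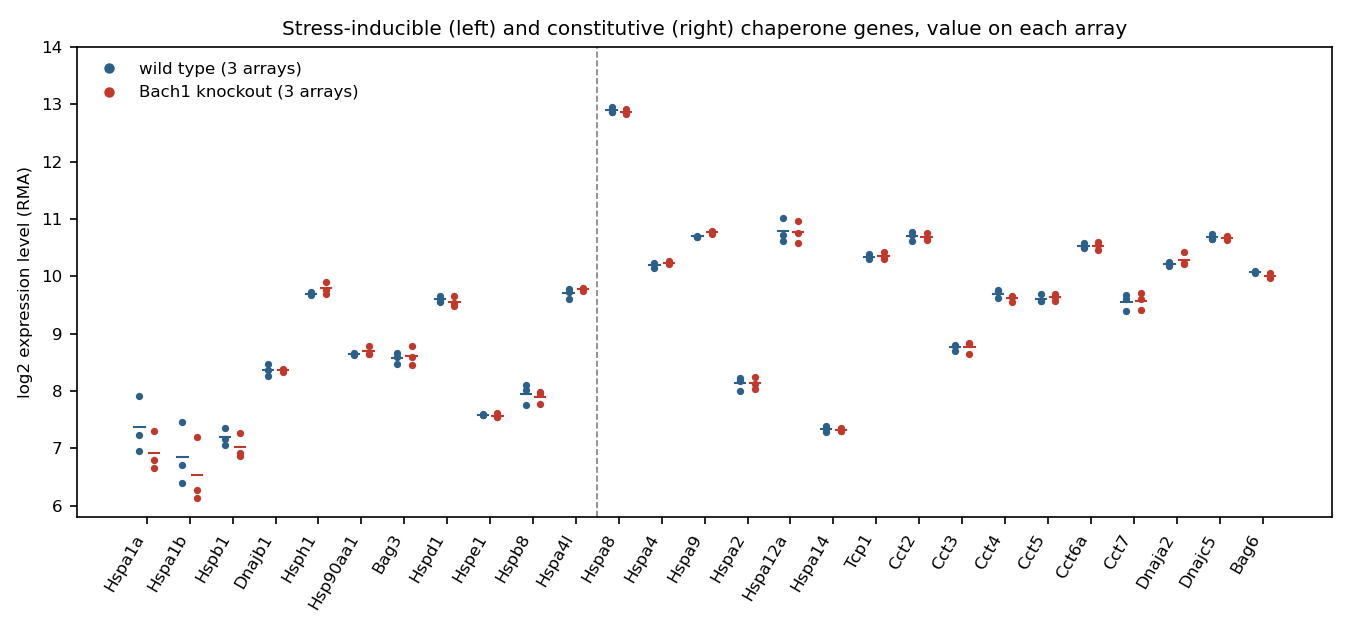
The y axis gives the log2 level on each array for the measured inducible genes (left of the dashed line) and constitutive genes (right), with wild type in blue, Bach1 knockout in red and short lines for group means. Levels of different probe sets do not compare as amounts of RNA; within each gene the genotypes overlap or differ by little, and Hspa1a and Hspa1b show the widest scatter.

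Differences between the genotypes were small among constitutive members. Hspa8, the constitutive cytosolic Hsp70, read 12.95, 12.87 and 12.86 on the wild-type and 12.85, 12.91 and 12.84 on the knockout-labelled arrays. That is a log2 fold change of -0.026 (95% CI -0.21 to 0.16). Hspa4, an Hsp110 relative, ranged from 10.15 to 10.27 over all arrays with a log2 fold change of 0.037, and it turned to -0.010 with arrays centred on their medians. Hspa2, an Hsp70 best known from male germ cells, had a log2 fold change of 0.0019 (95% CI -0.24 to 0.25) and was at -0.045 with that centring. Hspa9, the mitochondrial Hsp70 mortalin, read 10.69, 10.69 and 10.71 against 10.74, 10.79 and 10.78, so its groups did not overlap. The size was small, a log2 fold change of 0.071 (95% CI -0.10 to 0.24; limma, adjusted p = 0.815). Hspa12b, an Hsp70 relative of blood vessel lining cells, had the highest fold change of the Hsp70 class at 0.095 (95% CI -0.12 to 0.31), and it belongs to neither class. Of 16 measured constitutive genes all had an absolute log2 fold change under 0.1, from -0.087 to 0.071. An unadjusted p under 0.05 was reached by 0 of the 16, against 8.27% of all probe sets. Groups did not overlap for 2 of the 16 (12.5%), against 14.3% of all probe sets. The median SD within genotypes of the constitutive class was 0.061, and that of the inducible class was 0.082. Hspa12a, an Hsp70 relative of the constitutive class, was its most variable member, with 11.02, 10.72 and 10.61 on the wild-type and 10.75, 10.96 and 10.59 on the knockout-labelled arrays. Its SD was 0.20, and 93.5% of probe sets of like level had a lower one.

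The small heat shock proteins and genes named after them held 3 of the 6 members with an unadjusted p under 0.05. That is 33.3% of the 9 genes in the class, and 4 (44.4%) had groups that did not overlap, where the background was 8.27% and 14.3% of all probe sets. The class was not tested as a set. Hspb7, best known from heart and skeletal muscle, read 5.31, 5.58 and 5.26 on the wild-type and 5.72, 5.66 and 5.84 on the knockout-labelled arrays. Each knockout-labelled array exceeded each wild-type array, with a log2 fold change of 0.36 (95% CI 0.079 to 0.64; limma, adjusted p = 0.546). Its mean level was 5.56, near the medians of the arrays (5.58 to 5.69), and the median log2 fold change over probe sets of like level was 0.054. Hspb9, a small heat shock protein of the testis, read 6.12, 5.91 and 5.98 against 6.59, 6.27 and 6.29. Its log2 fold change was 0.38 (95% CI 0.088 to 0.67; limma, adjusted p = 0.543), again without overlap. Hspbap1, which encodes a protein that binds Hspb1, went the other way, with 6.82, 6.70 and 7.08 against 6.67, 6.32 and 6.52. The lowest wild-type value of Hspbap1 lay just above the highest knockout-labelled one, and the log2 fold change was -0.37 (95% CI -0.71 to -0.024; limma, adjusted p = 0.588). Hspbp1, an exchange factor that acts on Hsp70, read 10.49, 10.39 and 10.34 against 10.29, 10.28 and 10.22, a log2 fold change of -0.15 (95% CI -0.34 to 0.049). Hspb1 itself read 7.16, 7.35 and 7.06 against 7.27, 6.92 and 6.87, with overlap and a log2 fold change of -0.17 (95% CI -0.51 to 0.17). That was -0.29 without knockout-labelled replicate 1, and it was -0.093 without knockout-labelled replicate 3 and -0.088 without wild-type replicate 2. The remaining genes of this class of 9 were Hspb3, Hspb6, Hspb8 and Hspb11, and the last encodes a protein of cilia and not a small heat shock protein.

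DnaJ co-chaperones deliver clients to Hsp70. An unadjusted p under 0.05 was reached by 1 of 12 in class B (8.33%) and 2 of 25 in class C (8.0%), near the 8.27% of all probe sets and 6.51% of genes. All 3 were lower on the knockout-labelled arrays, where lower calls made up 3.3% of probe sets and 2.71% of genes. Dnajc24, an enzyme cofactor in the synthesis of diphthamide on elongation factor eEF2, read 7.66, 7.64 and 7.48 on the wild-type and 7.34, 7.39 and 7.24 on the knockout-labelled arrays. The groups did not overlap, and the log2 fold change was -0.27 (95% CI -0.50 to -0.053; limma, adjusted p = 0.557). Dnajc30, a mitochondrial DnaJ protein tied to complex I, read 8.88, 8.87 and 8.69 against 8.69, 8.51 and 8.47. Its groups met between wild-type replicate 3 and knockout-labelled replicate 1, with a log2 fold change of -0.26 (95% CI -0.50 to -0.0069; limma, adjusted p = 0.596). Its gene overlaps Bud23 in the RefSeq table, so signal from that gene cannot be told apart. Dnajb3 read 5.06, 5.34 and 5.20 against 4.95, 4.89 and 5.0, with a log2 fold change of -0.25 (95% CI -0.49 to -0.0079; limma, adjusted p = 0.595). It lies within the Ugt1a locus, its mean level lay at the 40th percentile of all probe sets, and the median over probe sets of like level was 0.073. Among the 25 DnaJ C genes the highest value was that of Dnajc9, a histone chaperone, at 0.15 (95% CI -0.22 to 0.52), which was 0.0085 without wild-type replicate 2 and 0.29 without wild-type replicate 3. In the B class Dnajb6, which suppresses aggregation of polyglutamine proteins, was highest at 0.060 (95% CI -0.12 to 0.24). The 3 measured A-class genes lay between -0.038 for mitochondrial Dnaja3 and 0.067 for Dnaja2.

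BAG proteins and the CCT ring gave no member at an unadjusted p under 0.05, a share of 8.27% over all probe sets and 6.51% over genes. Groups did not overlap for 2 of the 6 BAG genes (33.3%), lower on the knockout-labelled arrays, and for 0 of the 9 CCT genes. That share was 14.3% over all probe sets, and neither class was tested as a set. Bag1, which links Hsp70 to the proteasome, read 9.34, 9.43 and 9.36 on the wild-type and 9.24, 9.08 and 9.28 on the knockout-labelled arrays. Its groups did not overlap, with a log2 fold change of -0.18 (95% CI -0.39 to 0.033; limma, adjusted p = 0.638). Bag6, a chaperone for membrane proteins, also separated at a log2 fold change of -0.070. Bag5 had the highest fitted value of the 6 BAG genes, 0.071 (95% CI -0.21 to 0.35), which ran from 0.0089 without knockout-labelled replicate 3 to 0.17 without knockout-labelled replicate 2. Its place was not stable, since without knockout-labelled replicate 3 or wild-type replicate 2 Bag3 was higher, at 0.045 and 0.077. Tcp1, a subunit of the CCT ring, read 10.30, 10.33 and 10.39 against 10.33, 10.30 and 10.43, a log2 fold change of 0.013 (95% CI -0.18 to 0.21) that was -0.034 with arrays centred on their medians. Cct4 was lowest of the 9 CCT genes at -0.087 (95% CI -0.28 to 0.11). Cct8l1, a CCT-like gene read at a low level, was highest at 0.22 (95% CI -0.014 to 0.45; limma, adjusted p = 0.614), where probe sets of like level had a median of 0.063.

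Partners of these chaperones outside the rule gave no call. Of 53 listed genes (heat shock factors, Hsp90 and Hsp70 co-chaperones, prefoldin, mitochondrial partners and further chaperones) 48 were measured, and limma called 0. At an unadjusted p under 0.05 there were 3 (6.25%, against 8.27% of all probe sets and 6.51% of genes), all higher on the knockout-labelled arrays, and the median log2 fold change was -0.023. Unc45b, a myosin chaperone of striated muscle, read 5.51, 5.56 and 5.27 on the wild-type and 5.97, 5.95 and 5.83 on the knockout-labelled arrays. Its log2 fold change was 0.47 (95% CI 0.21 to 0.73; limma, adjusted p = 0.513), without overlap. The medians of the arrays were 5.58 to 5.69, so this probe set read at a low level. Hsf2bp, which binds heat shock factor 2, had the highest value, 0.48 (95% CI 0.088 to 0.87; limma, adjusted p = 0.557). Its means, 5.06 on the wild-type and 5.54 on the knockout-labelled arrays, lay below those medians. Pfdn1, a prefoldin subunit that hands clients to the CCT ring, was at 0.21 (95% CI 0.0090 to 0.40; limma, adjusted p = 0.592). Hscb, a mitochondrial co-chaperone of iron-sulfur cluster assembly, was lowest at -0.19 (95% CI -0.51 to 0.13). Values did not overlap for 11 of the 48 (22.9%, against 14.3% of all probe sets), 7 higher and 4 lower. By group that was 7 of 24 Hsp90 and Hsp70 co-chaperones, 3 of 8 prefoldin and CCT helpers and 1 of 5 heat shock factors and regulators.

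The antioxidant response element core was searched in the same promoter windows, as BACH1 is known to act through elements of this kind. The core was read as TGACNNNGC and, on the other strand, GCNNNGTCA. It was in 12.4% of all windows and in 14% of all genes, and in 13 of the 66 chaperone genes with a window (19.7%). Dnajb1, Hsph1, Bag1, Tcp1 and Hspbap1 were among them. Of the 6 members with an unadjusted p under 0.05, 5 had a window, and 1 of these, Hspbap1, held the core, at position -33 from its start. The search for this core was chosen after the values were seen.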

How the data were processed

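Affymetrix arrays were hybridised with biotin-labelled cRNA. The values the authors deposited are log2 levels, 1 per probe set and array. RMA is the method that the submitters' processing notes name; its version and annotation are not given in the sources used here. RMA is meant to even out the arrays' distributions, which can remove a change shared by most genes. The deposited values were not fully evened, with array medians from 5.58 to 5.69. There were 0 further columns of sample values. A platform annotation gave 1 gene for 23521 of 41345 probe sets, several for 1814 and none for 16010, and 23328 matched the RefSeq gene table (GRCm38.p6).

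All probe sets were fitted in R 4.3.3 by limma 3.58.1, with statmod 1.5.0 beside it (lmFit and eBayes, 6 arrays, no covariates), with Benjamini-Hochberg adjustment over all and 95% CIs. A fold change is the knockout-labelled mean log2 level less the wild-type one. The fit was tested on simulated data with known changes. Precision is limited by having 3 arrays a group.

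The members, lists and classes were chosen with earlier results of these data known. Named genes are fixed inducible and constitutive sets, members with an unadjusted p under 0.05, members without overlap and with an absolute log2 fold change over 0.1, and the highest and lowest of each family; Dnajc5g and Bag6 were named after their values were seen, as were Hspa1l, Hspa12a and Neurod6. Alternatives were a replicate block, each array left out, renewed quantile normalization, median centring, trended and robust variances, leaving out probe sets under the 40th percentile of mean level (5.07) and the median over probe sets of a gene.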

Additional observations from a re-analysis of the deposited data

How the results depend on the processing

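In every alternative run, limma called 0 of the chaperone genes, with a smallest adjusted p of 0.464 (without dim probe sets, which left 75 members). Over the array the count of called probe sets was 0 with the replicate block and 0 without any single array, against 3. Members at an unadjusted p under 0.05 numbered 1 to 4 with an array left out, against 6. Over all 41345 probe sets the counts were 2469 to 4007, against 3419. Members without overlap numbered 14 to 19, against 9, since fewer arrays separate more readily. The members' median log2 fold change was -0.019 to -0.0042 with an array left out, 0.0060 after renewed quantile normalization and -0.064 with arrays centred on their medians, where that of all probe sets was -0.047.

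Same-numbered arrays were not treated as pairs. Their deviations from the group means correlated at 0.0864, -0.0326 and 0.0395 across probe sets, below the 0.1 asked for. Low correlations across all probe sets cannot exclude pairing. With the replicate block the log2 fold change of Hspa1a stayed at -0.45 (unadjusted p = 0.0118, limma, adjusted p = 0.613). In that fit 5 of the 80 members had an unadjusted p under 0.05, as did 3352 of all 41345 probe sets.

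Signs changed for genes near 0. Renewed quantile normalization gave 0.012 for Hspe1 and 0.033 for Dnajb1. Median centring gave -0.045 for Hspa2, -0.010 for Hspa4, -0.0096 for Bag3 and -0.034 for Tcp1. The median over probe sets gave 0.0098 for Hspa8, 0.12 for Dnaja3 and -0.24 for Tcp1. With an array left out the ranges were -0.088 to 0.029 for Dnaja3, -0.056 to 0.042 for Dnajb1, -0.047 to 0.11 for Bag3, -0.16 to 0.024 for Hspb8, -0.064 to 0.051 for Hspa2, -0.0036 to 0.11 for Dnaja2, -0.027 to 0.040 for Tcp1 and -0.049 to 0.0023 for Hspa8. The cause was not tested. Of the 31 named genes the other 21 kept their sign throughout.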

Other observations

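For 8 of the 80 chaperone genes the annotation gave more than 1 probe set, and the ones not used in the report bear on how the gene is read. Hspa8 had 4 probe sets, with mean levels of 12.88, 10.52, 10.51 and 8.10. Their log2 fold changes were -0.026, 0.0076, 0.012 and 0.075, so all 4 gave small values. Those at 10.52 and 10.51 read the same to 2 decimals except on wild-type replicate 2 (10.56 and 10.54), so they may not be separate readings. Hspa1l, the Hsp70 gene next to Hspa1a that is best known from the testis, had 2 that differed in sign. The brighter read 6.69, 6.28 and 6.52 on the wild-type and 6.33, 6.33 and 6.45 on the knockout-labelled arrays (log2 fold change -0.13), and the dimmer 4.81, 4.53 and 4.54 against 5.13, 4.90 and 4.79 (0.31; limma, adjusted p = 0.606). Hspb1 gave -0.17 with the brighter and -0.00096 with the dimmer probe set. The dimmer probe set of Tcp1, at a mean level of 2.96, gave -0.50 (limma, adjusted p = 0.642) beside 0.013 for the brighter, at 10.35. These differences between probe sets of a gene were not tested.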
